A study of Callithrix jacchus with 4 samples.

Results

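The receptor chains and the transcription factor through which cytokines of the interleukin-6 family act were examined in single-nucleus RNA sequencing of marmoset primary visual cortex (V1). From the 32323 genes listed in the table of the injured cohort, 6 were chosen by name: IL6ST, OSMR, LIFR, IL6R, STAT3 and SOCS3. The table of the control cohort listed 16383 genes, among them 5 of the 6, and did not list SOCS3. Each gene was summed over the nuclei of every library and annotated cell type, and is given as UMIs (unique molecular identifiers, 1 per captured molecule) per 1000000 UMIs of those nuclei (CPM) and as the share of nuclei with at least 1 UMI.

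The injured cohort held 3 libraries, each from 1 adult marmoset (Callithrix jacchus) whose V1 had been injected on one side with endothelin-1 (ET-1), a vasoconstrictor that causes a focal ischemic stroke, 7 days before collection. Its tissue was grey matter of the V1 operculum and included the ischemic core and the penumbra. The control cohort held 1 library, in which 3 adult marmosets without a lesion were pooled, so it carried no estimate of the spread between control animals and the p-values below rest on the spread between the 3 injured animals. Control nuclei were sorted by flow cytometry and sequenced on another platform, with another nuclear isolation and another removal of doublets, and none of this can be told apart from the injury.

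IL6ST encodes gp130, the chain that nearly all receptors of this family share, and OSMR, LIFR and IL6R encode the partners that give specificity to oncostatin M, leukemia inhibitory factor and interleukin-6. Ligand binding brings Janus kinases together, which phosphorylate STAT3. STAT3 then enters the nucleus and induces its target genes, among them SOCS3, an inhibitor that ends the signal. In the injured brain this route is best known for its part in astrocyte reactivity, and interleukin-6 is a product of activated microglia.

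The 29537 injured nuclei had median depths of 3531 to 4504.5 UMIs per library, against 2117 in the 8610 control nuclei, so shares of nuclei were also computed after each nucleus was thinned to 1000 UMIs. That comparison left out the shallower nuclei, 7.398% of those from injured tissue and 17.5% of the controls. Control microglia, oligodendrocyte precursors (OPC) and nuclei annotated as Endo, the vascular label, were few, with 129, 171 and 181 nuclei, of which 71.3%, 53.2% and 53.0% fell below 1000 UMIs. Between 15 and 27 cell barcodes were shared by any 2 libraries.

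The study assigned the types with a list of marker genes, so the order of these markers was largely set in advance and does not test the labels. With 1 exception in each cohort, 32 of 33 markers of injured nuclei and 31 of 32 listed markers of control nuclei were highest in their own type. The exceptions were GPR34, a microglial receptor, which was highest in injured OPC, and FLT1, an endothelial receptor, which was highest in control microglia. The label Endo covered different nuclei in the 2 cohorts. Of 4444 injured Endo nuclei, 2005 lay in cluster 19, with 21.6 CPM of FLT1 and 2763 CPM of the neuronal gene SYT1, 1647 in cluster 14 with 2207 CPM of FLT1, and 705 in cluster 20 with 31.5 CPM of FLT1 and 2098 CPM of LAMA2, a laminin gene of the vessel wall. The other 87 lay in cluster 11, with 2684 CPM of FLT1 and 1517 CPM of SYT1. Of 181 control Endo nuclei, 155 lay in cluster 15, with 10.9 CPM of FLT1 and 4675 CPM of LAMA2, and 26 in cluster 22, with 2866 CPM of FLT1. LAMA2 is not among the markers of the study and was chosen here after its values were seen.

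Across the 5 genes and 7 cell types, 2 of 35 tests passed every limit of a call (edgeR quasi-likelihood test, Benjamini-Hochberg adjusted p under 0.01, a fold change beyond 0.25 on the natural log scale and a UMI in at least 10% of nuclei of either cohort), beside 2.35% of all tests across genes and cell types. IL6ST was higher in injured astrocytes and IL6R was lower in injured Endo nuclei. At an adjusted p under 0.05, and with no limit on fold change or detection, there were 9, of which 5 were higher and 4 lower after injury, beside 12.6% of all tests. With the limit on the adjusted p of a call set at 0.05, 7 of 35 were calls, beside 7.69% of all tests. The control library lay outside the range of the 3 injured libraries in 31 of 35 tests, below it in 21 and above it in 10, and the same held for 81.6% of all tests. Separation of the control library from the injured animals was therefore common in these data and is not in itself a result about a gene.

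The background differed between cell types. An adjusted p under 0.05 was reached by 24.6% of all genes in excitatory neurons (ExN), 18.6% in Endo, 17.7% in inhibitory neurons (InN), 10.4% in astrocytes, 9.75% in oligodendrocytes, 2.77% in microglia and 1.25% in OPC. All limits of a call were passed by 3.85% of genes in ExN, 3.41% in InN and 0.774% in oligodendrocytes. The control library lay below all 3 injured animals for 36% of genes in astrocytes, 47.8% in Endo, 31.3% in ExN, 30.8% in InN, 49.4% in microglia, 32.9% in oligodendrocytes and 41.4% in OPC. It lay above all 3 for 43.2%, 40.9%, 47.5%, 44.9%, 40.8%, 43.5% and 40% of genes in the same order.

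**Figure D1:**
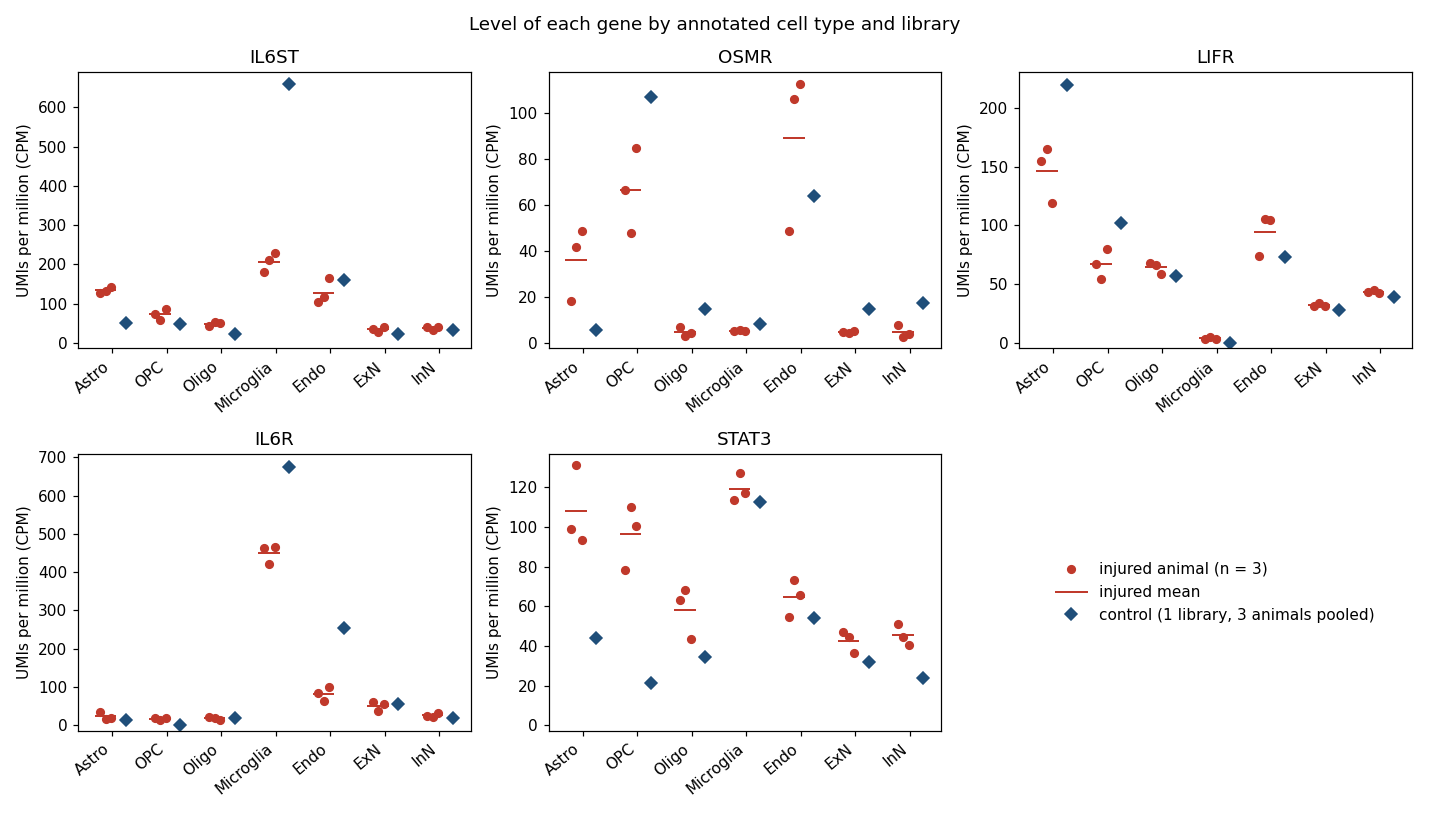
CPM (linear axis) of IL6ST, OSMR, LIFR, IL6R and STAT3 in each annotated cell type. Red points are the 3 injured animals with their mean as a line, and the blue diamond is the single control library, which lies at 50.9 CPM of IL6ST in Astro, under all injured animals, and at 659 CPM in microglia, above all of them.

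IL6ST, the shared chain, was present in every annotated type and was above control in injured astrocytes and below it in injured microglia. In astrocytes it was at 128, 133 and 141 CPM in injured replicates 1, 2 and 3 and at 50.9 CPM in the control library. The injured animals lay close together and all above control. The fitted log2 fold change was 1.51 (SE 0.23, n = 3 injured animals against 1 control library, edgeR adjusted p = 0.00934), and in this cell type 1.5% of all genes passed the limits of a call. The call was lost without injured replicate 1 (adjusted p = 0.0219), without replicate 3 (adjusted p = 0.0107), after thinning to 1000 UMIs (adjusted p = 0.0234) and with nuclei of at most 2500 genes (adjusted p = 0.0347). Over all alternatives the log2 fold change was 1.26 to 1.56 and the adjusted p 0.00152 to 0.0347. In its own comparison of single nuclei from the same cohorts, the study had already reported IL6ST as significantly higher in injured astrocytes.

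In microglia IL6ST was at 180.1, 211 and 229 CPM in the injured animals and at 659 CPM in the control library. All injured animals were below control. The log2 fold change of -1.42 (SE 0.21) did not pass the limits of a call with edgeR (adjusted p = 0.0440), nor did any of 13470 genes tested in microglia, although 2857 had an unadjusted p under 0.05. DESeq2 called 318 genes in microglia, IL6ST among them (log2 fold change -1.44, adjusted p = 0.00393).

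Elsewhere IL6ST had adjusted p-values of 0.0381 in oligodendrocytes, where it was at 43.9, 53.0 and 49.9 CPM against 21.9 CPM, and of 0.0406 in ExN, where it was at 34.5, 29.1 and 39.5 CPM against 22.2 CPM. Neither is a call. In InN and OPC the injured animals were above control by log2 fold changes of 0.36 and 0.74, with adjusted p-values of 0.251 and 0.380 by edgeR. In Endo nuclei they were at 103 to 164 CPM, a range that held the control value of 162 CPM.

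The injury effect on IL6ST differed between cell types when that difference itself was tested across all 28 sums with library as a block (adjusted p = 5.56e-05, edgeR). Of 5 genes tested, 2 passed at an adjusted p under 0.01, IL6ST and IL6R, beside 6.64% of all genes. The effect on IL6ST in microglia was 2.12 lower on the log2 scale than the mean effect in the other 6 types (-2.12, SE 0.24, adjusted p = 7.88e-06), a limit that 2.53% of genes passed. That in astrocytes was 1.23 higher (SE 0.26), with an adjusted p of 0.0161 that missed the limit, which 0.528% of genes passed.

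**Figure D2:**
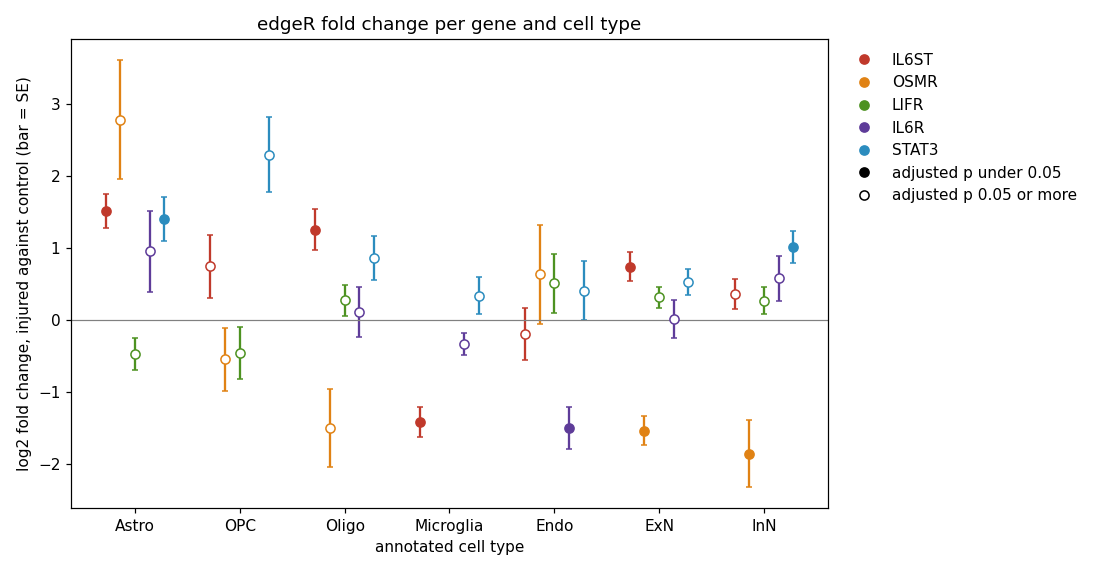
log2 fold change of injured against control per gene and cell type from edgeR, with bars of 1 SE. Filled points have an adjusted p under 0.05. Genes with 0 or 1 control UMI in a type (OSMR and LIFR in microglia, IL6R in OPC) are not drawn. IL6ST stands at 1.51 in Astro and at -1.42 in microglia.

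The microglial label also held nuclei with very different IL6ST levels. In injured cluster 21, with 1798 nuclei, IL6ST was at 374, 549 and 503 CPM in the 3 animals. In cluster 6, with 3698 nuclei, it was at 97.6, 90.9 and 79.1 CPM, and in cluster 16, with 2216 nuclei, at 91.04, 112 and 131 CPM. Cluster 21 was above the other 2 in each animal, and its range did not overlap theirs.

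Those clusters also differed in genes used to mark microglia. P2RY12, a receptor of resting microglia, was at 258 CPM in cluster 21, at 141 CPM in cluster 6 and at 26.1 CPM in cluster 16, and at 233 CPM in control microglia. CD74, the invariant chain of antigen presentation, was at 613, 1291 and 1869 CPM in the same injured clusters and at 8.03 CPM in control microglia. The other microglial markers did not all follow these orders. In the same clusters DOCK8 was at 1323, 1102 and 1150 CPM and in control microglia at 1253 CPM. GPR34 was at 79.6, 9.88 and 16.6 CPM and in control at 289 CPM. C1QB, not listed for control, was at 446, 476 and 149 CPM. With clusters 21 and 27 (21 nuclei) alone, injured microglia averaged 478 ± 92.8 CPM of IL6ST (SD, n = 3), a log2 ratio to control of -0.46, whereas clusters 6 and 16 averaged 93.7 ± 3.89 CPM, a log2 ratio of -2.81, beside -1.67 over all nuclei. These selections were made after the values were seen and were not tested. The control value rests on 82 UMIs. FLT1 moved with IL6ST, at 276 CPM in cluster 21, 35.8 CPM in cluster 6, 74.0 CPM in cluster 16 and 570 CPM in control microglia, where the other endothelial markers, IGFBP7 and SLC2A1, were at 0. LAMA2, the laminin gene of the vessel wall, was at 18.4, 13.4 and 19.2 CPM in clusters 21, 6 and 16 and at 265 CPM in control microglia. The summed endothelial markers were at 142 to 172 CPM in injured microglia, against 3404 to 4096 CPM in injured Endo nuclei. In the control library they were at 570 CPM in microglia and 848 CPM in Endo nuclei. The part of these markers and of LAMA2 in the IL6ST difference was not tested.

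**Figure D3:**
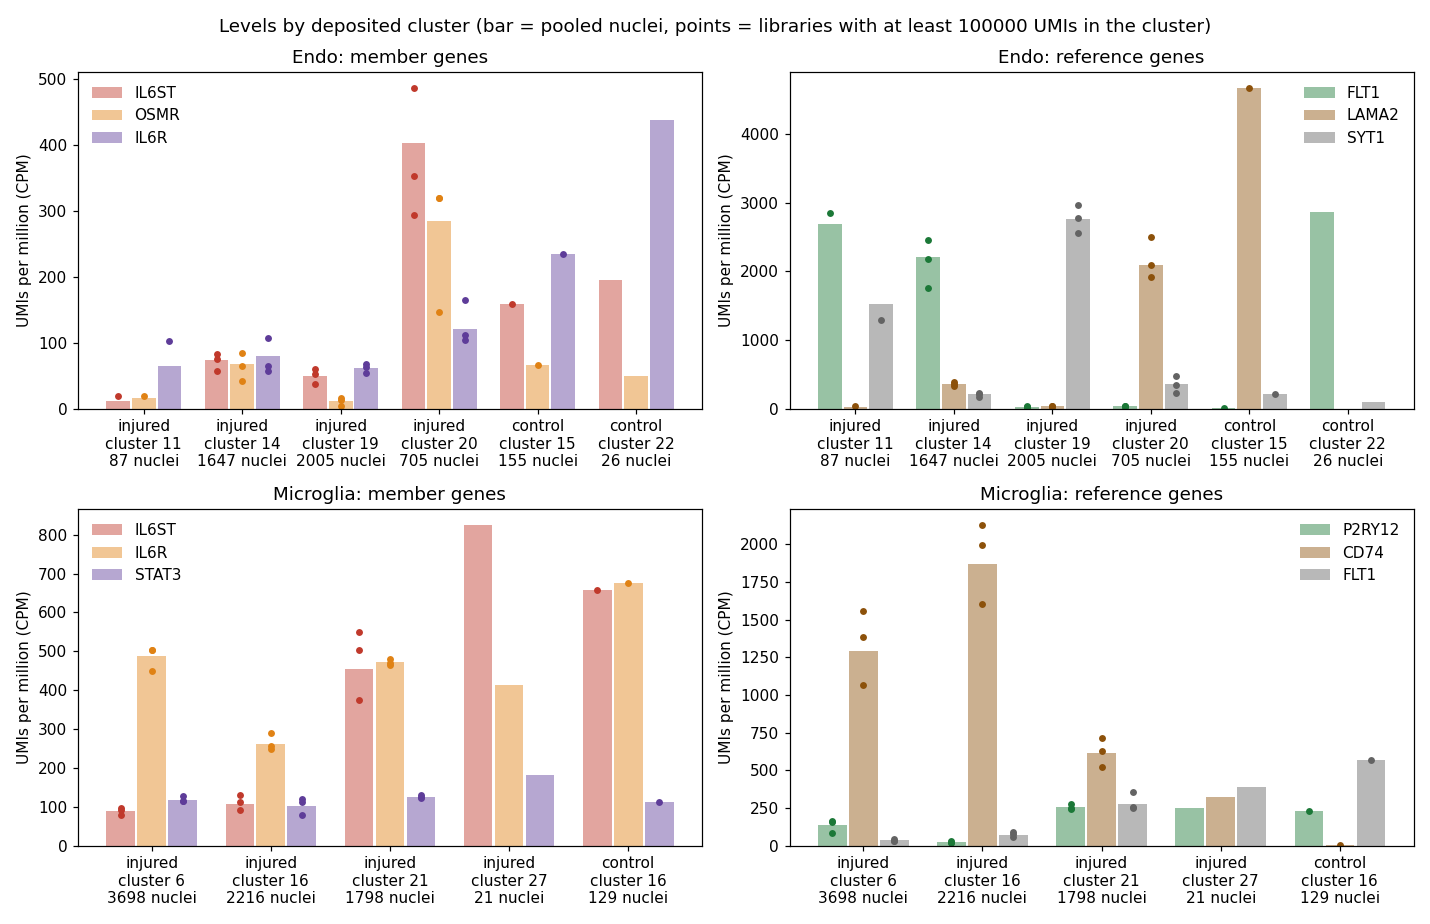
CPM (linear axis from 0) by deposited cluster for Endo (top) and microglia (bottom), with member genes on the left and reference genes on the right. Bars are pooled nuclei and points are single libraries with at least 100000 UMIs in the cluster. IL6ST is at 402 CPM in Endo cluster 20 and 455 CPM in microglial cluster 21, and injured Endo cluster 19 holds SYT1 at 2763 CPM and FLT1 at 21.6 CPM.

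OSMR, the signalling chain for oncostatin M, was highest in the injured cortex in Endo nuclei, OPC and astrocytes. Injured means were 88.9 ± 35.1 CPM in Endo, 66.3 ± 18.6 CPM in OPC and 36.2 ± 16 CPM in astrocytes (SD, n = 3), ranges that overlapped between neighbours in this order. The other 4 types were at 4.76 to 5.25 CPM and overlapped one another, and the lowest astrocyte value, 18.2 CPM, was above all of them. In the control library OSMR was at 107 CPM in OPC and 63.7 CPM in Endo, and at 5.78 to 17.5 CPM in the other types, astrocytes being the lowest.

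In astrocytes OSMR was at 18.2, 41.7 and 48.8 CPM after injury and at 5.78 CPM in control, where it rested on 5 UMIs. All 3 animals were above control, replicate 1 by the least. The log2 fold change was 2.79 with an SE of 0.83 and did not pass (edgeR adjusted p = 0.0681), with a range of 0.0119 to 0.125 over the alternative settings. The study, from the same nuclei, had listed OSMR among the reactive markers that were higher in injured astrocytes. After thinning, 1.51%, 3.68% and 3.09% of injured astrocytes and 0.552% of control astrocytes had an OSMR UMI (exact 95% interval of the control share 0.0670 to 1.98%, for counting error only), so 2 of the 3 animals lay above that interval. In injured microglia, which had few OSMR UMIs, the shares were 0.391 to 0.664%, so the control astrocyte share was no higher than in a type with little OSMR. Median depths before thinning were 2903 to 5279.5 UMIs in injured and 1183 UMIs in control astrocytes, and 2428 to 3930 UMIs in injured microglia.

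In neurons OSMR was low in both cohorts. It was at 4.88, 4.32 and 5.08 CPM in injured ExN and at 14.98 CPM in control (log2 fold change -1.54, SE 0.20, edgeR adjusted p = 0.00441), all injured animals being below control. This test had an adjusted p under 0.01 and was still not a call. A UMI was found in 2.79% of injured and 4.59% of control ExN, which is under the 10% that a call requires. In InN the values were 8.01, 2.75 and 3.96 CPM against 17.5 CPM (log2 fold change -1.86, adjusted p = 0.0243). Control oligodendrocytes were at a like level, 14.9 CPM, and the part of free RNA in these counts was not tested.

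The difference of the OSMR injury effect between cell types had an adjusted p of 0.0165 by edgeR, which missed the limit. It was 0.000864 without injured replicate 1, 0.0447 without replicate 2 and 0.120 without replicate 3.

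In OPC the injured animals, at 66.5, 47.6 and 84.9 CPM, were below the control value of 107 CPM (20 UMIs), with a log2 fold change of -0.55 (SE 0.44, edgeR adjusted p = 0.509). In microglia a single control UMI was found, and the ratio of injured to control levels was 0.649 with a counting interval of 0.115 to 25.8, which gives no direction.

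Within Endo nuclei OSMR was highest in the LAMA2 cluster. Injured cluster 20 held 147, 318 and 320 CPM in the 3 animals, cluster 14 held 42.2, 84.7 and 64.4 CPM, and cluster 19 held 3.55 to 16.6 CPM. Cluster 20 was above the others in each animal. IL6ST was also highest in cluster 20, with 293, 353 and 486 CPM, against 37.0 to 81.9 CPM in clusters 14 and 19.

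Set beside the control LAMA2 cluster 15, at 65.4 CPM of OSMR and 158 CPM of IL6ST, the injured LAMA2 cluster was higher in all 3 animals for both genes, with log2 ratios of means of 2.0 and 1.26. Between the FLT1 clusters, IL6ST was lower in all 3 animals (log2 ratio -1.48, on 4 control UMIs) and OSMR lay on both sides of control (0.36, on 1 control UMI). Over all Endo nuclei the log2 ratios were 0.48 for OSMR and -0.34 for IL6ST. Control cluster 15 rests on 12 UMIs of OSMR and 29 of IL6ST, and these comparisons, chosen after the values were seen, were not tested.

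LIFR, the chain that pairs with gp130 for leukemia inhibitory factor, was highest in astrocytes in both cohorts. Injured astrocytes held 155, 165 and 119 CPM and the control library 219.6 CPM, so all injured animals were below control. The log2 fold change was -0.48 (SE 0.22) and did not pass (edgeR adjusted p = 0.191). At equal depth the injured shares, 11.8%, 14.5% and 10.9%, were also below the control share of 17.7%, whose exact interval reached down to 13.9% and held 1 of them. Among injured microglia, which nearly lacked LIFR, the shares were 0.293 to 0.456%.

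After astrocytes came Endo (94.6 ± 18.2 CPM, SD, n = 3), OPC (67.1 ± 12.9 CPM) and oligodendrocytes (64.3 ± 5.30 CPM), each overlapping the next, then InN (43.5 ± 1.29 CPM) and ExN (32.3 ± 1.55 CPM), which did not overlap. Microglia were last at 3.85 ± 0.84 CPM, 8.39-fold below ExN in mean and with no overlap. No control microglial nucleus had a LIFR UMI (0 of 129 nuclei), and both cohorts were under the level of 3 control UMIs (24.1 CPM), so no fold is given.

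No LIFR test in any cell type had an edgeR adjusted p under 0.05. The difference of its injury effect between cell types had an adjusted p of 0.210.

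IL6R, the chain that binds interleukin-6 itself, was a microglial gene in both cohorts. Injured microglia held 462, 421 and 465 CPM and control microglia 675 CPM, against 14.3 to 99.1 CPM in all other injured sums. The injured mean in microglia was 5.48-fold that in Endo, the next type. The control value lay above all 3 animals, with a log2 fold change of -0.34 (SE 0.16) that did not pass (edgeR adjusted p = 0.305). At equal depth 32.8%, 30.4% and 35.1% of injured and 37.8% of control microglia had a UMI, and the control interval of 22.5 to 55.2% held all 3. At 500 UMIs, with all 129 control nuclei kept, all 3 were below the control interval, at 17.3 to 18.98% against 27.1% (19.7 to 35.7%). At 1500 UMIs, where 12 control nuclei remained, all 3 were above the control share.

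Across injured microglia IL6R was more even than IL6ST between 2 of the clusters, at 489 CPM in cluster 6 and 474 CPM in cluster 21, and lower in cluster 16 at 262 CPM. The median depth of cluster 16 was 1497 UMIs, against 3727 in cluster 6 and 4127 in cluster 21.

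In Endo nuclei IL6R was at 83.0, 64.1 and 99.1 CPM after injury and at 255 CPM in control (52 UMIs). All 3 animals were below control, with a log2 fold change of -1.50 (SE 0.30, edgeR adjusted p = 0.00985), a call in a comparison where 6.18% of all genes were called. It was lost with DESeq2's size factors in edgeR (adjusted p = 0.0110), with library size alone (0.0127), after thinning (0.0188), with unlisted genes counted as 0 (0.0105) and without injured replicate 1 (0.0252). The direction did not turn by cluster: the log2 ratio was -1.50 without injured cluster 19, -0.89 between the LAMA2 clusters and -2.53 between the FLT1 clusters, the last on 9 control UMIs. At equal depth 6.18%, 5.11% and 8.76% of injured and 22.4% of control Endo nuclei had a UMI, and all 3 were below the control interval of 14.03 to 32.7%. Summed astrocyte markers were lower after injury as well, at 356 to 529 CPM in injured Endo sums and 1171 CPM in control. Summed endothelial markers were higher, at 3404 to 4096 CPM and 848 CPM, and so were summed microglial markers, at 469 to 853 CPM and 206 CPM, the control sum being without C1QB, which is not listed there. Of the microglial markers, CD74 was at 402 to 552 CPM in injured clusters 14, 19 and 20 and 5.45 CPM in control cluster 15, while DOCK8 was at 63.0 to 129.9 CPM and 202 CPM. The part of other cell types in the IL6R result was not tested.

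The injury effect on IL6R also differed between cell types (edgeR adjusted p = 0.00899). In Endo it was lower by 3.30 on the log2 scale than the mean of the other 6 types (-3.30, SE 0.57, adjusted p = 0.000952), past the limit with 3.38% of all genes. That mean includes OPC, where no control UMI was found and the fitted value depends on the prior count. From the fits of single types, the difference of the Endo effect from the mean of the others was -2.98 with OPC and -1.77 without it, values with no test. No interaction test was run without OPC. Refits with an injured animal left out keep OPC, so they cannot show how far it sets either result. The overall difference lost its call without any one injured animal (adjusted p = 0.0177 to 0.0337), while the Endo difference did not (-3.35 to -3.14).

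In OPC IL6R was at 17.9, 14.4 and 19.9 CPM after injury and at 0 in control, and 3 control UMIs would be 16.05 CPM. Replicate 2 was below that level, so no fold is given. In ExN, the third type in order, the range of 36.3 to 60.8 CPM held the control value of 54.5 CPM, and the fitted log2 fold change of 0.01 was -0.10 when scaled by library size alone.

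STAT3, the transcription factor on which the receptors converge, was the most evenly spread of the 5 across types, at 42.6 to 119 CPM in mean after injury. Microglia (119 ± 7.03 CPM), astrocytes (108 ± 20.4 CPM) and OPC (96.3 ± 16.4 CPM) led (SD, n = 3). The range of astrocytes overlapped those of microglia and OPC, while the ranges of microglia and OPC did not overlap. Control microglia led that library at 112 CPM.

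Its highest fitted fold changes were in OPC, astrocytes and InN. In astrocytes it was at 99.04, 131 and 93.4 CPM against 43.9 CPM, a log2 fold change of 1.41 (SE 0.30, edgeR adjusted p = 0.0273). In OPC it was at 78.2, 110.3 and 100.4 CPM against 21.4 CPM, which rests on 4 UMIs, a log2 fold change of 2.30 (SE 0.52, adjusted p = 0.0800), in a type where 0.0697% of all genes were called. All injured animals were above control in both, and neither is a call. In InN it was at 51.2, 44.7 and 40.6 CPM against 23.99 CPM (log2 fold change 1.02, adjusted p = 0.0145), again with no overlap.

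All 3 of these passed the limits of a call when injured replicate 2 was left out (adjusted p = 0.00579 in astrocytes, 0.00179 in OPC and 0.000504 in InN, n = 2 injured animals, edgeR). Calls over all genes rose in the same setting, from 1.5% to 5.72% in astrocytes, from 0.0697% to 7.15% in OPC and from 3.41% to 11.9% in InN, and many other genes thus gained a call with STAT3. In microglia the injured values of 114 to 127 CPM were just above the control value, and the fitted log2 fold change of 0.34 lay under the median of 0.42 over all genes of that type. The difference in injury effect between cell types had an adjusted p of 0.122 for STAT3.

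**Figure D4:**
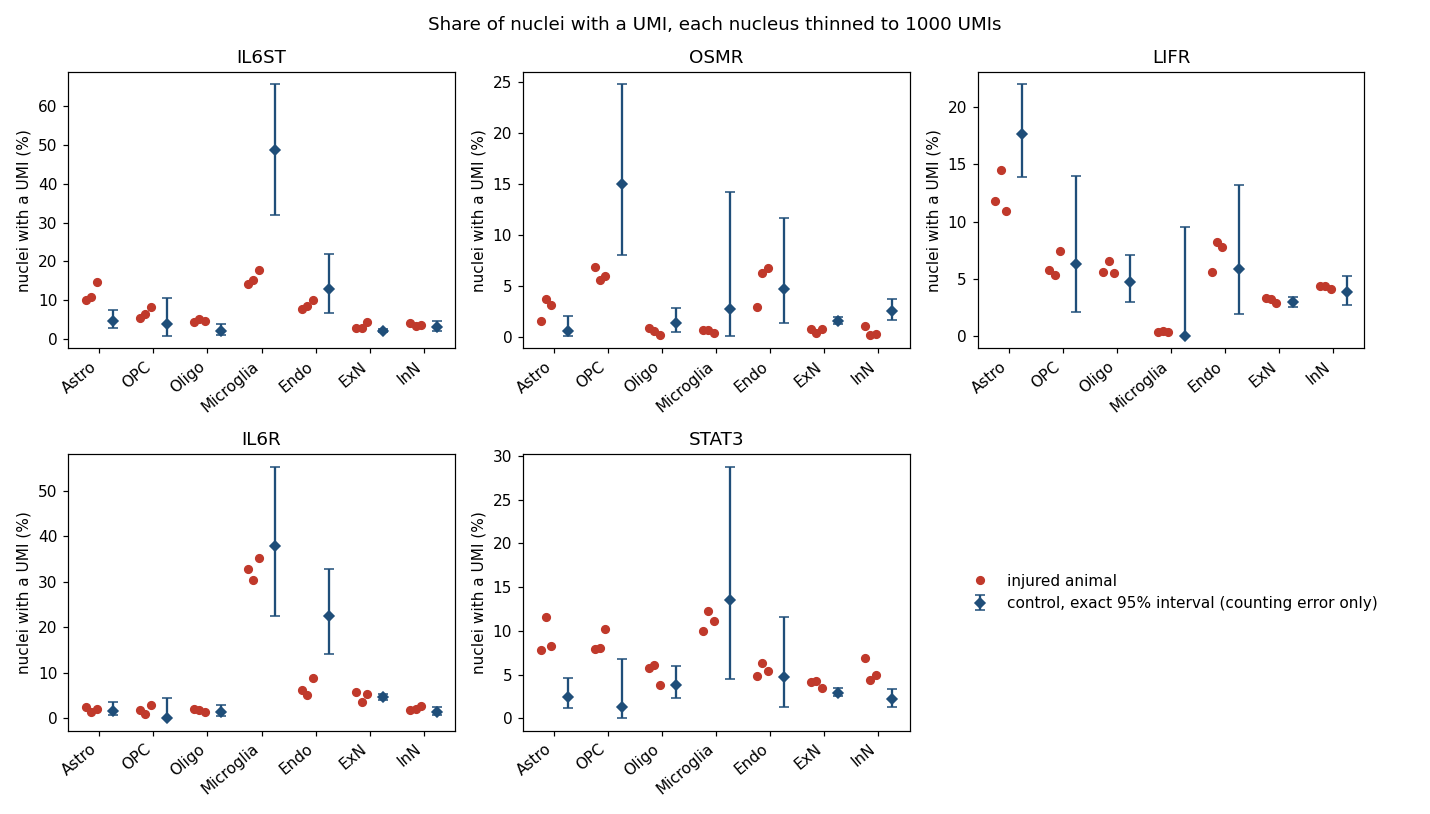
Share of nuclei (percent, linear axis) with a UMI after each nucleus was thinned to 1000 UMIs. Red points are injured animals and blue diamonds the control library with its exact 95% interval, which covers counting error only. In Astro the 3 injured animals lie above the control interval for IL6ST (10.1 to 14.5% against 4.70%) and for STAT3 (7.79 to 11.6% against 2.49%).

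The shares depended on depth. Without thinning, the share of nuclei with a UMI was higher in all 3 injured animals in 30 of 35 pairs of gene and cell type, and at equal depth in 17, with 11 lower in all 3 and 7 mixed. Over all genes and cell types tested, shares were higher in all 3 animals in 84.1% and lower in 5.49% of pairs before thinning, and higher in 38.6% and lower in 36.9% at equal depth. All 3 animals were outside the control interval in 26 of 35 pairs before thinning, beside 60.6% of all pairs, and in 11 at equal depth, beside 17.7%. In astrocytes 41.5%, 30.6% and 41.9% of injured and 7.24% of control nuclei had an IL6ST UMI before thinning, and 10.1%, 10.8% and 14.5% against 4.70% after it. For STAT3 the astrocyte shares at equal depth were 7.79%, 11.6% and 8.24% against 2.49%, and those in OPC 7.89%, 8.08% and 10.3% against 1.25%, where the control share is 1 nucleus of 80. In each the injured animals were above the control interval at 1000 UMIs. At 500 UMIs, where no nucleus of these types was left out, this held for IL6ST in astrocytes (5.22 to 6.64% against 2.53%) but not for STAT3, which was at 3.94 to 5.33% against 3.54% in astrocytes (control interval 2.20 to 5.35%) and at 2.49 to 3.55% against 1.75% in OPC (0.363 to 5.04%).

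In microglia IL6ST was found in 14.1%, 15.1% and 17.7% of injured and 48.6% of control nuclei at equal depth, below the control interval of 31.9 to 65.6%, which rests on 37 control nuclei. In OPC OSMR was found in 6.81%, 5.54% and 5.90% of injured and 15% of control nuclei, also below the control interval of 7.998 to 24.7%, while its CPM did not pass the test. At 500 UMIs IL6ST in microglia was again below the control interval, at 7.51 to 10.01% against 28.7%, while OSMR in OPC, at 2.22 to 4.23% against 5.85%, reached into the control interval of 2.84 to 10.5%.

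SOCS3, the inhibitor that STAT3 induces, was almost undetected. Of the injured nuclei, 6 Endo, 2 astrocyte, 2 microglial, 2 oligodendrocyte, 1 ExN, 1 InN and 1 OPC nuclei had a UMI. No more than 3 were found in any library and type, and the highest level was 0.914 CPM. The control table lists no gene found in under 2 nuclei, so an unlisted gene may still have had a UMI, and at the injured level every control sum would have held under 1 UMI. A change in SOCS3 could therefore not be measured, and the reason for its low counts was not tested.

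Receptor chains were found together in the same nucleus mostly in the types where each was frequent. At equal depth IL6ST and IL6R were found together in 384 of 7133 injured microglia (5.44 ± 0.75% over animals, SD, n = 3), where the product of the single shares averaged 5.15%. IL6ST and LIFR were together in 30 of 2071 injured astrocytes (1.43 ± 0.32%), with a product of 1.45%. The first pair was above its own product in each of the 3 animals, at 5.01, 5.02 and 6.30% against 4.62, 4.59 and 6.22%, and the second was above it in 2 of 3. These differences were not tested. The microglial clusters differed in both genes before thinning, with IL6ST in 69.9% and IL6R in 79.2% of cluster 21. In cluster 16 the shares were 13.8% and 25.2%, and such a mixture can lift the joint share over the product. IL6ST and OSMR were together in 48 of 3209 injured Endo nuclei (1.39 ± 0.66%), above a product of 0.475%. The clusters of that label differed in both genes before thinning, with IL6ST in 41.6% and OSMR in 28.8% of cluster 20 and in 6.58% and 1.70% of cluster 19. Such a mixture can lift the joint share over the product, and its part in this difference was not tested. In astrocytes IL6ST and OSMR shared 12 of 2071 nuclei, too few to compare.

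Injured astrocytes were then split as the study split them, by RTN4, the gene of the myelin-associated inhibitor Nogo-A, at a log-normalized value of 1, and the 2 classes were compared within each animal. OSMR was at 19.5, 45.6 and 55.4 CPM in RTN4+ and 10.3, 25.1 and 21.5 CPM in RTN4- astrocytes of replicates 1, 2 and 3. It was higher in the RTN4+ class in 3 of 3 animals, with a log2 fold change of 1.096 (SE 0.27, n = 3 pairs, edgeR with animal as a block, adjusted p = 0.00652), the only 1 of 5 genes called, beside 3.24% of all genes.

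That call rested on few UMIs, 3, 14 and 16 in the RTN4- classes. It was lost without the animal block (log2 fold change 0.98, adjusted p = 0.563), where no gene was called, without injured replicate 2 (1.28, adjusted p = 0.0537) and without injured replicate 3 (0.85, adjusted p = 0.304). After thinning, with classes assigned again on the thinned counts, the sign turned (-0.13, adjusted p = 0.949). RTN4+ nuclei were deeper in each animal, with median depths of 5389, 3200 and 5026 UMIs against 4291, 2296 and 3584. Summed astrocyte markers were lower in them, at 7385 to 8452 CPM against 9348 to 13182 CPM, and the part of either in the result was not tested.

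STAT3 was also higher in RTN4+ nuclei in 3 of 3 animals, at 103, 142 and 95.5 CPM against 75.6, 86.1 and 84.8 CPM, with an adjusted p of 0.131 by edgeR. Its log2 fold change was 0.02 to 0.60 over the alternatives. After thinning, with classes assigned again, 3.59%, 13.5% and 8.63% of RTN4+ nuclei had a STAT3 UMI. The RTN4- shares were 10.8%, 9.98% and 8.02%, so replicate 1 went the other way. LIFR had a log2 fold change of -0.33 (SE 0.14, adjusted p = 0.198) and was lower in 2 of 3 animals. IL6ST and IL6R had adjusted p-values of 0.679 and 0.681.

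**Figure D5:**
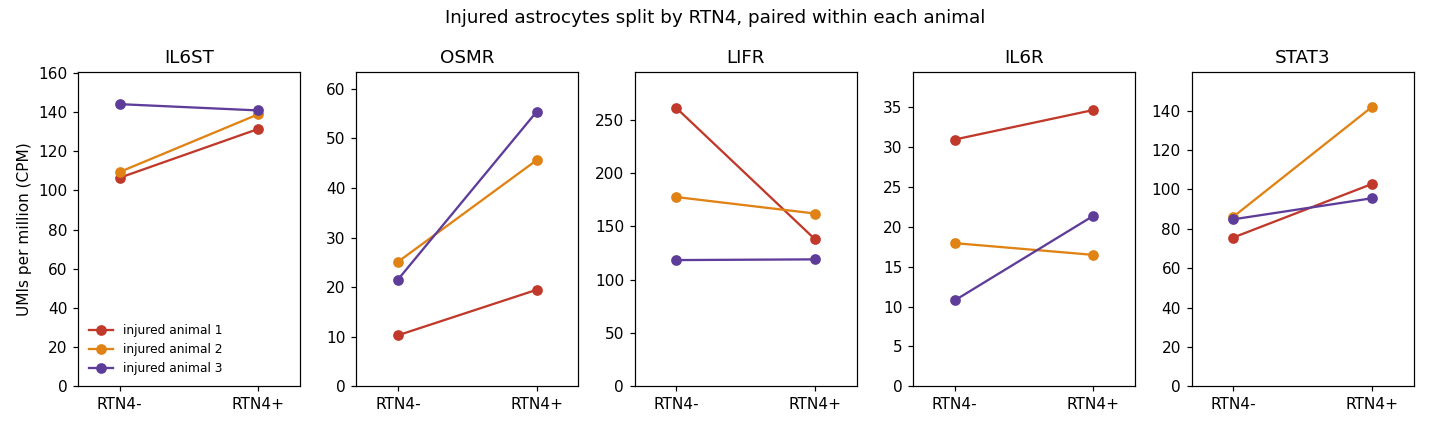
CPM (linear axis from 0) in RTN4- and RTN4+ injured astrocytes, with a line for each of the 3 animals. The OSMR lines rise in all 3, from 10.3 to 19.5, from 25.1 to 45.6 and from 21.5 to 55.4 CPM, and LIFR of replicate 1 is at 261 CPM in RTN4- and 138 CPM in RTN4+ nuclei.

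The rest of the pathway was described from 6 lists of 63 genes, 44 of them listed in both cohorts. Of 11 ligand genes, IL6, LIF, OSM and IL11 were listed only in the injured table, and CNTF and EBI3 were in neither. IL6 had 317 UMIs in all injured nuclei, 72, 82 and 77 of them in microglia of the 3 animals. LIF had 7, OSM 10, IL11 10 and IL31 7 injured UMIs, and CTF1 had 110 injured and 42 control UMIs. IL27, a subunit of interleukin-27, was at 34.4, 89.4 and 20.3 CPM in injured microglia and at 0 in control, with wide spread between animals (edgeR adjusted p = 0.518). CLCF1, a ligand of the ciliary neurotrophic factor receptor, was at 21.02, 10.6 and 32.4 CPM in injured astrocytes and at 0 in control (adjusted p = 0.0503).

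None of 19 tests of the other receptors (CNTFR, IL11RA, IL27RA and IL31RA) was a call by edgeR or had an adjusted p under 0.05. Of 21 tests of Janus kinases 1 was a call, JAK2 in astrocytes, at 157, 231 and 153 CPM against 25.4 CPM (log2 fold change 2.94, SE 0.38, adjusted p = 0.00544), with no overlap.

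Of 88 tests of inhibitors 1 was a call, a smaller share than the 2.35% of all tests that were calls. It was SOCS2 in astrocytes (35.0, 35.5 and 43.1 CPM against 4.62 CPM, log2 fold change 3.14, edgeR adjusted p = 0.00854). In control astrocytes 3 UMIs would be 3.47 CPM, so that fold rests on few control UMIs. Of 105 tests of genes listed as STAT3 targets 8 were calls, all higher, and 5 of these were in astrocytes, where 1.5% of all genes were called. There CD44, a hyaluronan receptor, rose from 19.7 CPM to 372, 436 and 511 CPM, and GFAP, an intermediate filament of astrocytes, from 148 CPM to 523, 442 and 563 CPM. VIM, another intermediate filament, had a log2 fold change of 4.32, IRF1, which interferons also induce, of 5.15, and CHI3L1, a secreted glycoprotein, of 6.31. CHI3L1 had 1 control UMI, for a ratio of 78.2 with a counting interval of 13.99 to 3091. The other calls were VIM in ExN and InN and A2M, a protease inhibitor, in Endo, with log2 fold changes of 5.95, 4.91 and 4.11. VIM in control InN rests on 3 UMIs. The study had already reported higher GFAP, VIM, SERPINA3 and CD44 in these injured astrocytes. Counts and medians over this list are therefore not independent of earlier results from the same data.

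The astrocyte median over the 15 tested targets was 3.70 on the log2 scale, or 3.62 with the gene at 0 in control set to its bound, beside 0.05 over all genes tested. In the other types it was 0.66 to 2.01 with such genes at their bounds, where 5 of 15 targets in Endo, 5 of 14 in oligodendrocytes, 6 of 16 in microglia and 8 of 15 in OPC were at 0 in control. Of these, 4 in microglia and 2 in OPC had injured levels no higher than 3 control UMIs would be. They gave no fold and were left out, so the medians of those types lean high. For the 5 member genes the astrocyte median was 1.41, and the median in microglia was -0.34, beside 0.42 over all genes there. The median of the inhibitors in astrocytes was 0.26, or 0.10 with the gene at 0 in control set to its bound, and medians of the kinases were 0.21 to 0.69 across types. In astrocytes the medians were 0.51 for the kinases and -0.31 for the other receptors, each with 3 genes tested.

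The genes whose pattern over the 28 sums was most like that of each member, by Pearson's r of log2(CPM + 1) among 10300 genes with a mean of at least 10 CPM, were CTNNA1, RREB1 and IL4R for IL6ST (r = 0.922, 0.921 and 0.916). They were ENSCJAG00000031578, BMPR2 and WWC2 for OSMR (0.868, 0.867 and 0.862), DMPK, NPAS2 and ENSCJAG00000035233 for LIFR (0.918, 0.905 and 0.898) and PGS1, STAB1 and HPS1 for IL6R (0.925, 0.922 and 0.920). For STAT3 they were ENSCJAG00000009988, BATF2 and ENSCJAG00000000426 (0.900, 0.892 and 0.886). The 28 sums share 4 libraries, so these values describe the pattern and carry no test.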

How the data were processed

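Nuclei were profiled with 10x Genomics chemistry, and the authors deposited raw UMI counts per gene and nucleus for each cohort, made with Cell Ranger 3.1.0 and Seurat against calJac3, with annotated types and clusters. Cohorts were filtered and clustered apart, and the control table is limited to expressed genes. The deposited counts were summed per library and type. Sums of genes listed in both tables were tested with edgeR 4.0.16 (R 4.3.3; filterByExpr, TMM, quasi-likelihood F test, Benjamini-Hochberg over all genes), with limits of a call after the study's methods, and with DESeq2 1.42.0 as an alternative. Other alternatives were other scalings and filters, thinning to 1000 UMIs per nucleus, an animal left out and, chosen after seeing the data, selections of clusters. Deposited doublet removal was kept. Library totals were 22832703 to 48722394 UMIs. Exact 95% intervals cover counting error only. Named genes were the 6 members, listed ligands, listed genes with a call, markers, RTN4 and the 3 genes most like each member. Members and lists were chosen with earlier results of these data known. The scripts were tested on simulated counts. Injured replicates 1, 2 and 3 are F1619, F1565 and F1711. Results of some listed genes are not reported here.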

Additional observations from a re-analysis of the deposited data

Results flagged for a closer look

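The injury effect on IL6ST differed between cell types (adjusted p = 5.56e-05, edgeR interaction test), with the largest size in microglia, where it was -2.12 on the log2 scale relative to the mean of the other 6 types. IL6ST was below control in 3 of 3 injured animals in microglia and above it in 3 of 3 in astrocytes. The injury effect on IL6R differed as well (adjusted p = 0.00899, edgeR), and in Endo it was -3.30 relative to the other 6 types, with 3 of 3 animals below control. A mean without OPC, where control had no IL6R UMI, gave a difference of -1.77 from the fits of single types, with no test. The 2 Endo annotations hold different mixtures of clusters, and the control microglia are 129 nuclei of 1 library. Whether the injured microglial label also holds infiltrating macrophages was not tested. Groups of 3 injured animals and 1 control library are too small to look for a sample that stands apart.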

How the results depend on the processing

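No paired analysis was possible because the control cohort is 1 pooled library, so injured and control libraries share fewer than 2 replicate numbers. In the RTN4 comparison the animals are the block, and without the replicate block 0 members were called in place of 1 (OSMR 0.98, adjusted p = 0.563), as after thinning to 1000 UMIs (0), and 0 to 1 with an animal left out. Of 35 member tests 2 were calls, 7 with an adjusted p limit of 0.05, 1 with RLE size factors, with library size alone or with unlisted genes counted as 0, 0 after thinning, and 0 to 5 with an injured animal left out (0 without replicate 1, 5 without replicate 2, where 1.096% and 6.85% of all tests were calls, against 2.35% with all animals). Members whose injury effect differed between cell types were 2 (IL6ST and IL6R), and 1 to 2 with an animal left out (IL6ST and OSMR without replicate 1, IL6ST alone without replicate 2 or 3). Pathway calls were 17, 37 at an adjusted p limit of 0.05, 32 with DESeq2 and 8 to 38 with an animal left out. Of 384 member fold changes under alternatives 359 kept direction and side of the limits, 10 gained a call, 9 lost one and 6 changed sign: IL6R in ExN (0.01; -0.10 with library size alone, -0.16 with nuclei of at most 2500 genes, -0.12 to 0.20 with an animal left out), OSMR in Endo (-0.0775 with nuclei of at most 2500 genes) and STAT3 in microglia (-0.19 after thinning). In the RTN4 comparison OSMR (-0.13) and LIFR (0.0105) changed sign after thinning. The causes were not tested. Library size alone moved the median of all genes by -0.0988 to -0.244 on the log2 scale. Shares higher in all injured animals numbered 17 of 35 at 1000 UMIs, beside 38.6% of all pairs. They numbered 18 at 500 UMIs and 21 at 1500, where the share over all pairs was not computed. Without the clusters rich in markers of other types, a selection made after seeing the data, the log2 ratio of IL6ST in astrocytes was 1.21 in place of 1.40. Control sums with few UMIs (4 of STAT3 in OPC, 5 of OSMR in astrocytes) limit those folds.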
